A study of Homo sapiens with 13 samples.

Results

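FOXO homotypic arrays are synthetic enhancer fragments that carry 1 to 5 copies of a FOXO motif and no motif of another factor, each placed in 3 alternative flanking contexts. They were taken by construct name, keeping every name that lists FOXO only, which gave 15 arrays in each of 3 tables. These were 15 of 542 constructs in the episomal library with a 5 bp spacer between motifs, 15 of 442 in the episomal library with a 10 bp spacer, and 15 of 513 in the integrated 5 bp library. Each array is reported against rd, taken from its name as the construct without a motif, in the same context and the same table.

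All groups came from MEC1, an established cell line from chronic lymphocytic leukaemia, a cancer of B cells, with genotype WT. The assay was STARR-seq, in which a fragment sits in the transcribed part of a reporter and is read out through its own RNA, here by a random 12 bp barcode on each molecule. For the episomal groups, the 5 bp and the 10 bp plasmid libraries were each transfected in 2 replicates without further treatment, RNA was taken after 24 h, and 1 sequenced plasmid DNA library per spacer served as input. For the integrated group, the 5 bp library was transfected in 8 sets into MEC1 cells that carried a landing pad, a CMV-driven GFP gene between loxP and lox2272 sites exchanged by CRE recombinase. GFP-negative cells were sorted after 10 to 12 days, grown for another 6 to 7 days and extracted 3 times for RNA and genomic DNA. The labels do not say whether these 3 extractions were separate cultures, so p-values measure the spread between these samples only.

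FOXO proteins are forkhead transcription factors that bind DNA through a winged helix domain. Signalling through PI3K and AKT phosphorylates them and holds them in the cytoplasm, and they act in the nucleus when that signalling is low. In the B lineage FOXO1 is needed for early development, and the B cell receptor lowers FOXO activity through the same kinases.

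Sequences of the motif, spacers and contexts were not used here, and an array is known by its name, such as 3 copies in context 1. The sequences that bear on the results are barcodes, since in the integrated library single barcodes carried most of the RNA of some constructs. The leading barcode of 3 constructs is given 5′ to 3′ as the table lists it, in lower case throughout because no base was singled out.
1 copy of FOXO, context 1: tccacgtcccgt
3 copies of FOXO, context 1: cgacacccgaaa
rd, context 2: atgattacgcaa
Their share of the RNA was 47.2%, 86.9% and 84.0% respectively, and their values are described with the integrated arrays.

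The 6 episomal libraries held 3850658 to 4563359 reads each, of which 16.6% to 18.5% had a barcode without a construct name. FOXO arrays were covered by 7986 of 236860 barcodes at 5 bp and 8910 of 210844 at 10 bp, with 169 to 1396 barcodes per array at 5 bp and 85 to 1319 at 10 bp. Single barcodes weighed little here, at most 3.45% of an array's RNA reads at 5 bp and 6.77% at 10 bp. The integrated library was thinner, with 457 of 16189 barcodes in FOXO arrays and 3 to 83 per array. Reads were PCR products without molecular identifiers, so reads do not count molecules. The binomial intervals given for integrated barcodes cover the counting error of barcodes only.

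With a 5 bp spacer, FOXO arrays gave slightly more RNA than rd. Activity, the log2 ratio of an array's share of RNA reads to its share of plasmid reads, was above that of rd by a mean of 0.50 ± 0.02 (SD, n = 2 transfections) over the 15 arrays, a 1.42-fold difference. All 15 lay above rd, and 13 of 15 passed at an adjusted p of 0.05 by edgeR's quasi-likelihood test with Benjamini-Hochberg adjustment, with 0 lower. Of all constructs tested, 66.1% were higher than rd and 25.1% lower. The median over FOXO arrays, 0.44, was below the median over all constructs, 0.62.

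Scaling a library does not change the difference from rd, but whether an array counts as higher depends on what serves as zero. All 15 arrays had an activity below 0, from -1.35 to -0.33, as had rd, at -1.25, -1.12 and -1.55 in contexts 1 to 3. Scaled by TMM, which centres the typical construct, 1 array was higher than 0 and 10 were lower, where 40.5% and 49.5% of all constructs were. Scaled by library totals, 0 were higher and 15 lower, where 22.6% and 69.9% were.

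The highest level over rd at 5 bp belonged to 3 copies in context 3. It gave 9893 and 9255 RNA reads in the transfections from 15981 plasmid reads, and its activity over rd was 0.98 and 1.00, a 1.99-fold difference. With 4 copies in context 3 the values were 0.94 and 0.93. Both arrays kept apart from every context 2 array, the highest of which, 1 copy, reached 0.40 and 0.58.

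In context 1 the highest array had 5 copies. Its activity over rd was 0.92 and 0.90, against 0.14 and 0.10 for 4 copies in the same context, the lowest of the 15 (adjusted p = 0.250, edgeR). The other array that was not called, 1 copy in context 3, stood at 0.27 and 0.14 (adjusted p = 0.0513, edgeR). It passed when either 10 bp transfection was left out, with adjusted p from 0.0214 to 0.0218. Without 5 bp transfection 2, the arrays of 3 and 4 copies in context 2 were no longer called, at 0.21 and 0.26.

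Copy number had a small and uneven relation to activity at 5 bp. The mean over the 3 contexts was 0.35, 0.45, 0.55, 0.47 and 0.70 over rd from 1 to 5 copies. The slope was 0.07 per copy (SE 0.02, adjusted p = 0.0075, limma), a call that was lost without the 5-copy arrays (0.04, adjusted p = 0.0606), without 5 bp transfection 1 (adjusted p = 0.0671) and without either 10 bp transfection (adjusted p = 0.0570). Slopes passed in context 1 at 0.07 and context 3 at 0.16, while context 2 had -0.01 (adjusted p = 0.537, limma). Of all slopes tested, 28.1% were higher than 0 and 43.8% lower.

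Measured from 1 copy of the same context, 6 of 12 longer arrays were higher and 3 lower, where 34.1% and 46.2% of all such differences were. The higher ones were all 4 in context 3, from 0.28 to 0.79, and 2 and 5 copies in context 1, at 0.16 and 0.57.

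Single steps went both ways. Of 12 steps between neighbouring copy numbers at 5 bp, 4 were higher and 4 lower by limma, where 33.0% and 49.5% of all steps were. In context 1, activity fell by 0.24 on the log2 scale from 3 to 4 copies and rose by 0.79 from 4 to 5. In context 3 it rose by 0.28 from 1 to 2 copies and by 0.50 from 2 to 3, then fell by 0.18 from 4 to 5. Context 2 had 1 called step, down by 0.13 from 1 to 2 copies.

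With a 10 bp spacer, most FOXO arrays gave less RNA than rd. The mean over the 15 arrays was -0.58 ± 0.04 (SD, n = 2 transfections) relative to rd, a 1.5-fold lower level. By edgeR, 12 of 15 arrays were lower and 1 was higher, where 44.9% of all constructs were lower and 44.9% higher. The median was -0.59 over FOXO arrays and -0.05 over all constructs. By TMM, 1 array was higher than 0 and 14 were lower, where 45.9% and 48.6% of all constructs were, and by library totals 1 was higher and 14 lower, where 31.2% and 62.4% were.

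The exception was 1 copy in context 3. It gave 14861 and 13871 RNA reads from 13101 plasmid reads over 909 barcodes, while rd of that context gave 6419 and 5871 from 12397. Its activity over rd was 1.13 and 1.16, a 2.21-fold difference (SE 0.10 log2, adjusted p = 2.94e-26, edgeR). This was also the only FOXO array in either episomal library with an activity above 0, at 0.32 and 0.23. The excess was spread over its barcodes: the top barcode held 1.22% and 1.28% of its RNA reads, and the median barcode had a log2 ratio of 0.13 and 0.15.

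The lowest array at 10 bp was 4 copies in context 2. Its activity over rd was -1.45 and -1.53, a 2.81-fold lower level, from 1321 and 1164 RNA reads over 275 barcodes. Next came 3 copies in context 1, at -1.25 and -1.19. Arrays of 1 copy in context 1 (-0.20 and -0.10, adjusted p = 0.127, edgeR) and 2 copies in context 3 (0.01 and 0.20, adjusted p = 0.276, edgeR) were not called. Without 10 bp transfection 1 the latter was called higher at 0.20, and without 10 bp transfection 2 the former was called lower at -0.20. The call for 3 copies in context 3, -0.26, was lost without either 5 bp transfection (adjusted p from 0.0657 to 0.0684).

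More copies went with lower activity at 10 bp, mainly between 1 and 3 copies. The means over rd were 0.14, -0.52, -0.80, -0.90 and -0.83 from 1 to 5 copies. The slope was -0.23 per copy (SE 0.02, adjusted p = 4.40e-06, limma), and it was below 0 in each context, at -0.17, -0.16 and -0.36 for contexts 1 to 3. Such a slope was common in this library: 78.1% of all slopes tested were lower than 0 and 9.38% higher, with a median of -0.23. All 12 arrays of 2 to 5 copies were lower than the 1-copy array of their context by limma, and 0 higher, where 69.2% and 24.2% of all such differences were.

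The step from 1 to 2 copies was down in every context, by 0.44 in context 1, 0.52 in context 2 and 1.04 in context 3. Later steps differed. Context 1 fell by a further 0.63 at 3 copies and rose by 0.49 at 4, context 2 rose by 0.17 and then fell by 0.57 at the same steps, and context 3 fell by 0.37 and 0.22. In all, 4 of 12 steps were up and 8 down, where 28.6% and 59.3% of all steps were.

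Set against each other, the spacers gave lower activity over rd at 10 bp in 14 of 15 designs, with 1 higher (edgeR), where 67.4% of all constructs were lower and 16.2% higher. The mean difference was -1.09 over FOXO arrays, from -1.85 for 5 copies in context 1 to 0.94 for 1 copy in context 3. The reference moved as well: the activity of rd was 0.57, 0.81 and 0.68 higher at 10 bp in contexts 1 to 3. Scaled by TMM the mean difference was -0.39, with 12 arrays lower and 2 higher, where 41.2% and 35.7% of all were. By library totals it was -0.28, with 10 lower and 2 higher, where 37.1% and 41.6% were. For 2 copies in context 3, at -0.38, the call was lost without 5 bp transfection 1 (adjusted p = 0.0552), and without transfection 2 it lay just above the threshold.

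An array of 1 copy has no second motif to be spaced from, and each spacer was its own pool and set of transfections. The 1-copy arrays differed by -0.50, -1.06 and 0.94 in contexts 1 to 3, all called by edgeR. Spacing, pool and any difference in the fragments around the motif cannot be told apart here. Measured from the 1-copy array of the same context, where rd cancels, 11 of 12 longer arrays were still lower at 10 bp by limma, and 0 were higher, where 54.9% and 26.4% of all such differences were. The median was -0.93 over FOXO arrays and -0.39 over all. Context 3 held the largest values, -1.32, -2.20, -2.37 and -2.05 for 2 to 5 copies, all measured from the 1-copy array that was high at 10 bp. Context 2 with 3 copies was the exception, at -0.14 (adjusted p = 0.123, limma).

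The slopes per copy also differed between the spacers. The 10 bp slope minus the 5 bp slope was -0.30 per copy (SE 0.03, adjusted p = 9.91e-06, limma), and -0.25, -0.15 and -0.51 in contexts 1 to 3. These slopes include the 1-copy arrays, which hold no spacing between motifs. Relative to rd, those arrays themselves differed by -0.50, -1.06 and 0.94 in contexts 1 to 3. Of all slope differences, 50.0% were lower than 0 and 21.9% higher. Across the 15 designs, activity at 5 bp and at 10 bp had a Pearson correlation of -0.58 and a Spearman correlation of -0.30, and without 1 copy in context 3 Pearson's value was -0.20. Relative to rd, Pearson's value was -0.0051 and Spearman's 0.18. These designs share contexts and copy numbers, so the values describe the set only.

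Flanking context changed FOXO activity in both libraries, with directions that depended on the array. For 1 copy, context 3 minus context 1 was -0.44 at 5 bp and 1.11 at 10 bp, both called by limma, while rd gave -0.30 and -0.19. With 3 copies the same difference was upward in both, at 0.33 and 0.77. With 4 copies, context 3 minus context 2 was likewise upward in both, at 0.16 and 0.44. At 5 bp, 6 of 15 context differences were higher and 7 lower, where 28.4% and 47.6% of all were. At 10 bp, 10 were higher and 2 lower, where 52.6% and 32.3% of all were. The change of these differences from 5 to 10 bp was upward in 10 and downward in 4 of 15 FOXO pairs, both plain, where 57.0% and 24.7% of all were, and relative to rd, where 51.9% and 28.6% were.

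Relative to rd, 11 of 15 context differences at 10 bp were higher and 4 lower, where 58.4% and 30.4% of all were. All 10 differences of context 3 from contexts 1 and 2 were among the higher, from 0.25 to 1.72, and the mean over copy numbers was -0.73, -1.05 and 0.03 in contexts 1 to 3.

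At 5 bp the context differences relative to rd were smaller. The means were 0.45, 0.38 and 0.67 over rd in contexts 1 to 3, and 6 of 15 differences were higher and 5 lower, where 44.2% and 32.5% of all were. The lower count was 2 when either 10 bp transfection was left out and 3 without 5 bp transfection 2. The largest was 0.82 between contexts 3 and 1 with 4 copies.

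Among the 8 motifs, FOXO arrays ranked 3 of 8 by mean activity over rd at 5 bp and 5 of 8 at 10 bp. At matched copy number and context, FOXO was higher in 55 and lower in 27 of 100 comparisons at 5 bp by limma, where 44.0% and 44.8% of all pairs of motifs were. FOXO was lower than NFKB, a family of inflammatory activators, in 15 of 15 designs, and FOXO minus NFKB averaged -2.26. It was higher than CTCF, a factor best known for chromatin loop boundaries, in 11 of 11, by a mean of 2.02. Against IRF, the interferon regulatory factors, the mean difference was -0.07, with 2 higher and 5 lower of 15.

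FOXO also exceeded the arrays of several lineage factors at 5 bp, mainly at higher copy numbers. It was called higher than PU1, a myeloid and B cell factor, in 12 of 14 designs, higher than MEF2 in 12 of 15 and higher than RUNX3 in 11 of 15. Lower calls were 2, 2 and 0. The mean differences were 0.93, 0.79 and 0.90. They were -0.16, 0.12 and 0.12 at 1 copy, and 1.78, 2.17 and 2.06 at 5 copies. At 2 copies FOXO minus MEF2 averaged -0.42. Against MYC, 7 designs were higher and 3 lower, with a mean of 0.10.

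At 10 bp the order changed. FOXO was higher in 41 and lower in 47 of 100 matched comparisons, where 44.8% and 47.2% of all pairs were. It was lower than IRF in 15 of 15 designs, with a mean of -2.18 for FOXO minus IRF. FOXO was also lower than NFKB in 13 of 15 and than RUNX3 in 11 of 15. It was higher than CTCF in 10 of 11, than PU1 in 12 of 14 and than MYC in 12 of 15. The change in FOXO minus another motif between the spacers was called higher in 25 and lower in 55 of 100 comparisons. Of all such changes between motifs, 43.0% were higher and 42.7% lower. For IRF 14 of 15 were lower and 0 higher, for RUNX3 13 of 15 and 1, and for MEF2 12 of 15 and 1. Against PU1, 8 of 14 were lower and 1 higher, and against CTCF 6 of 11 and 1. In contrast, 11 of 15 were higher and 1 lower for NFKB. For MYC 10 of 15 were higher and 1 lower.

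Barcodes within 1 array varied widely. The interquartile range of the log2 ratio across barcodes within a FOXO array was 1.13 to 1.5 at 5 bp and 1.18 to 1.51 at 10 bp, at a median of 8 to 13 plasmid reads per barcode. Over the 15 arrays the SD of activity was 0.25 at 5 bp and 0.52 at 10 bp, a measure unlike the interquartile range. The SD between transfections of 1 array's activity was at most 0.07 at 5 bp and 0.12 at 10 bp. Between 5.92% and 24.6% of an array's barcodes at 5 bp, and 3.85% and 23.1% at 10 bp, had a single RNA read. The episomal tables list no barcode with 0 reads in any library, so barcodes without RNA do not enter these activities.

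Once integrated, few FOXO barcodes gave detectable RNA. The share of the 457 barcodes with RNA was 13.8%, 16.2% and 10.1% in the replicates, a mean of 13.3% ± 3.09 (SD, n = 3), against 9.49% ± 3.08 for the 123 rd barcodes and 19.6% ± 2.66 for all 16189 barcodes. Counting any replicate, 134 of 457 FOXO barcodes had RNA, 29.3% (95% exact binomial interval 25.2 to 33.7), and 24 of 123 rd barcodes, 19.5% (12.9 to 27.6). Over all barcodes this was 36.6% (35.9 to 37.3). These intervals treat pooled barcodes as independent and leave out the spread between constructs. That share ran from 15.9% to 66.7% over FOXO arrays, the highest from 3 barcodes, and from 13.0% to 31.6% over the rd contexts. Pooled over contexts, FOXO was above rd in all 3 replicates, by 6.47, 3.18 and 1.94 percentage points. Both shares come from the same 3 samples, where an exact two-sided paired permutation test cannot go below p = 0.25. Among the other motifs the share per replicate was 58.9% for IRF, 43.7% for NFKB and 26.8% for PU1, and 10.7% for MYC, 10.3% for MEF2, 9.34% for CTCF and 5.65% for RUNX3.

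Most detected FOXO barcodes had RNA in a single replicate. Of the 134 detected, 98 had RNA in 1 replicate, 23 in 2 and 13 in all 3, which is 9.70%, compared with 18.5% over all detected barcodes and 16.7% for rd. Other motifs lay on both sides, from 6.45% for MEF2 and 7.35% for CTCF to 28.1% for NFKB and 50.4% for IRF. Median genomic DNA was 33.3 RPM, reads scaled to the library total as deposited, for FOXO barcodes with RNA and 21.9 RPM for those without, and the part of this in detection was not tested. By copy number the mean share was 15%, 12.1%, 13.1%, 11.1% and 19.6% from 1 to 5 copies, the last from 17 barcodes only. By context it was 13.9%, 14.5% and 12.2%, differences within the spread between replicates. The rd share was 10.3%, 14.0% and 5.07% in the same contexts, so FOXO and rd were close in context 2.

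Summed over barcodes, integrated FOXO arrays were spread on both sides of rd. By limma on log2(RPM + 0.5), 4 of 15 were higher and 4 lower, where 31.6% and 30.6% of all constructs were. The mean over the arrays was -0.98 ± 0.24 (SD, n = 3). Higher arrays were 1 copy in contexts 1 (0.94) and 3 (1.08) and 3 copies in contexts 1 (1.13) and 3 (2.29). Lower arrays were 1, 2 and 3 copies in context 2 (-2.62, -3.24 and -3.86) and 4 copies in context 1 (-1.74). The calls for 1 copy in context 3 and 4 copies in context 1 were lost without replicate 2 (0.80 and -1.41) or replicate 3 (1.16 and -1.51). Without subtracting rd, 0 of 15 arrays had a higher RPM in RNA than in genomic DNA by limma. A lower RPM was called for 9, where 14.4% of all constructs were higher and 58.1% lower. RPM compares shares of each library, not amounts.

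These values rested on single barcodes and on rd. The RNA to genomic DNA ratio of rd was 1.75 ± 0.64 in context 2 (SD, n = 3), where 1 barcode gave 1328, 2020 and 853 RPM of RNA from 25.5, 45.9 and 69.5 RPM of genomic DNA. Without it the ratio was 0.30 ± 0.18. The leading barcodes of rd in contexts 1 and 3 held 67.3% and 46.0% of its RNA. Without them the ratio moved from 0.50 ± 0.08 to 0.17 ± 0.04 in context 1. In context 3 it moved from 0.073 ± 0.009 to 0.040 ± 0.028. Likewise, 3 copies in context 1 had a ratio of 1.11 ± 0.28, with 1117, 1659 and 1307 RPM from its leading barcode, and 0.16 ± 0.06 without it. For 1 copy in context 1 the ratio moved from 0.96 ± 0.06 to 0.52 ± 0.31. With the leading barcode of every construct left out, 2 arrays were higher and 1 was lower, of 14 that could be tested, where 33.6% and 8.60% of all constructs were. The median of all constructs was 0.62 in that fit and -0.23 with all barcodes.

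Other settings moved these counts as well. With rd summed over the contexts, 1 array was higher and 9 were lower, where 16.7% and 33.7% of all constructs were. With at least 20 plasmid reads per barcode, 1 was higher and 5 were lower, where 28.2% and 30.8% were.

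The 3 leading barcodes given above were also read in the episomal 5 bp library. The barcode of 1 copy in context 1 had 6 plasmid reads and 2 and 5 RNA reads there. That of 3 copies in context 1 had 5 plasmid reads and 2 and 6 RNA reads. That of rd in context 2 had 36 plasmid reads and 23 and 12 RNA reads. Whether these barcodes stood out on plasmids was not tested. Of the 457 integrated FOXO barcodes, 293 were also read in the episomal 5 bp library, 290 of them under the same name. With at least 5 plasmid reads there, 80 barcodes that gave integrated RNA had a median episomal log2 ratio of -0.91 and -0.72 in the transfections, and 166 without integrated RNA had -1.03 and -0.88. The interquartile ranges, -1.5 to -0.31 and -1.72 to -0.5 in transfection 1, overlapped widely.

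Copy number and context had no clear mark on integrated FOXO arrays. The slope was -0.22 per copy (SE 0.11, adjusted p = 0.177, limma), where 21.9% of all slopes were higher than 0 and 21.9% lower. Of 12 steps 0 were higher and 1 was lower, 3 to 4 copies in context 3 at -1.66, where 9.88% and 13.6% of all were. Measured from 1 copy, 1 of 12 longer arrays was higher and 2 were lower, where 24.7% and 21.0% of all were. Between contexts, 0 of 15 plain differences were higher and 2 lower, where 4.91% and 6.75% of all were. Relative to rd, 4 were higher and 2 lower, where 43.6% and 13.3% of all were, and without replicate 2 these counts were 0 and 0.

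Some integrated arrays had no RNA in a replicate. No RNA was listed for 4 copies in context 2 in replicate 2 or for 5 copies in context 3 in replicate 1, from 11 and 9 barcodes. FOXO was lower than IRF in 12 of 13 matched designs, and over all motifs 12 comparisons were higher and 27 lower of 90, where 27.3% and 19.5% of all pairs were. Without replicate 1 these became 2 and 0, without replicate 2 they became 0 and 0, and without replicate 3 the lower count was 11. Across the 15 designs, activity in the integrated and episomal 5 bp libraries had a Pearson correlation of 0.13, and activity relative to rd of 0.37. Between the integrated and episomal 10 bp libraries the values were -0.08 and 0.58. Integrated values came from 3 to 83 barcodes per array, so these correlations describe the set only.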

How the data were processed

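The authors deposited read counts per barcode for the episomal libraries and, for the integrated library, RPM values per barcode, per the file headers. The integrated plasmid DNA column holds counts in the deposited file. The aligner and the barcode caller were not given in the sources used here. Each integrated barcode had at least 5 plasmid reads and 2 RPM in all 3 genomic DNA samples, tested on the table. 9 further columns of per-sample values (8 of the authors' ratios and 1 that matches no sample's label) were not used.

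Barcodes that had a construct name and 5 or more plasmid reads were added up by construct. A construct needed 5 barcodes in an episomal table or 3 in the integrated one. Reads were tested with edgeR 4.0.16, the rd reads of the same context and library as offset, over 439 constructs in both spacers. RPM were tested with limma 3.58.1 (trend, robust) on log2(RPM + 0.5), RNA against genomic DNA, over 510 constructs. Differences between designs used limma on activities per library. Both transfections of a spacer share its 1 plasmid DNA library, so these episomal p-values leave out the error of the input. All p-values were adjusted by Benjamini-Hochberg over all constructs, or all differences of a kind, and 0.05 was the threshold. The fits were run on simulated data with rd at almost pure counting noise, so the error of rd was not tested. All arrays of a context share 1 rd construct per library. Between transfections, reads per construct differed beyond counting noise (chi-square per degree of freedom 5.37 at 5 bp and 6.76 at 10 bp). Alternatives were TMM, totals, pooled rd, DESeq2 1.42.0, barcode filters and leaving out libraries. All 15 arrays were named by rule. Members and lists were chosen with earlier results of these data known.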

Additional observations from a re-analysis of the deposited data

Results flagged for a closer look

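The dependence of FOXO arrays on copy number differed between the spacers by limma's test of the difference. The 10 bp slope minus the 5 bp slope was -0.25 per copy in context 1, -0.15 in context 2, -0.51 in context 3 and -0.30 for the mean of contexts. These slopes include the 1-copy arrays, which themselves differed between the libraries, as given next.

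The 1-copy arrays, which hold no spacing between motifs, differed between the 10 bp and 5 bp libraries by edgeR's test of the difference. Relative to rd, the differences were -0.50 in context 1, -1.06 in context 2 and 0.94 in context 3. The pools were built and transfected separately.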

How the results depend on the processing

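Of 195 alternative values of counts, slopes and shares, 164 kept their direction and their side of the threshold or their size. The choice of zero moved the 5 bp result most. TMM and library totals set arrays against the typical construct or the library total, and not against rd. Scaled by TMM, 1 array was higher and 10 lower, and by library totals 0 and 15. The arrays that turned under TMM had -0.360, -0.200, -0.345 and -0.59 for 1 to 4 copies in context 1, -0.0812, -0.21, -0.29, -0.23 and -0.13 for 1 to 5 copies in context 2, and -0.80, -0.52, -0.0168, -0.0691 and -0.25 in context 3. Under totals the values were -1.03, -0.87, -1.01, -1.25 and -0.46 in context 1, -0.75, -0.87, -0.95, -0.90 and -0.80 in context 2, and -1.47, -1.19, -0.68, -0.74 and -0.92 in context 3. The median of all constructs went from 0.62 to -0.14 (TMM) and -0.81 (totals). At 10 bp, 2 copies in context 3 turned to -0.21 and -0.77. Between spacers, 2 arrays were higher under either scaling, 1 copy in context 3 at 1.63 and 1.74 and 2 copies in context 3, which had turned, at 0.31 and 0.42. 1 copy in context 1 turned to 0.0818 and 0.19 and was not called.

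For integrated arrays, RPM without subtracting rd gave 0 higher and 9 lower, with 1, 3 and 4 copies in context 3 at -2.69, -1.48 and -3.14 and 1 copy in context 1 at -0.0613. Pooled rd gave 1 and 9, with the same context 3 arrays at -2.04, -0.83 and -2.49. At least 20 plasmid reads per barcode gave 1 higher and 5 lower, with 1 and 3 copies in context 1 at -0.21 and -1.98. Without the leading barcodes 2 were higher and 1 lower, with 3 copies in context 1 at -0.13. At least 20 plasmid reads also left 1 lower context difference relative to rd at 5 bp and 4 higher integrated comparisons between motifs. The cause was not tested.

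Leaving out 1 library gave 1 to 2 higher arrays at 10 bp, a 5 bp slope of 0.0686 to 0.0765, 2 to 4 lower context differences relative to rd at 5 bp, 0 to 9 higher and 0 to 11 lower integrated comparisons between motifs, and 0 to 3 higher and 0 to 3 lower integrated context differences relative to rd. Without 5-copy arrays the 5 bp slope was 0.0450.

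Replicate numbers showed no pairing of the samples. Deviations of same-numbered samples correlated at -0.05 between spacers. Between integrated RNA and genomic DNA they correlated from -0.03 to 0.05, and 1 of 3 RNA samples correlated best with its own number. Integrated activities and RNA to genomic DNA ratios still took samples of the same number, so their spread carries that matching. Other matchings were not tested. With the replicate block, the difference between spacers had 1 array higher and 14 lower, as without it, and 4 integrated arrays were higher and 6 lower. The limma fit without a block for the spacers was chosen after seeing the data.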
